A study of Homo sapiens with 26 samples.

Results

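The genes described here are 4 members of the human Schlafen family, SLFN5, SLFN11, SLFN12 and SLFN13, taken by gene symbol from tables of 19128 genes (knockout experiment) and 19117 genes (parental lines), in which all 4 were present. Schlafen proteins are regulators of nucleic acid metabolism that are found in mammals, and several are induced by interferon. SLFN11 is recruited to stressed replication forks by the single-strand binding protein RPA, blocks replication there, and makes cells sensitive to DNA damaging drugs such as topoisomerase and PARP inhibitors. In small cell lung cancer it is studied as a marker of response to those drugs, and its silencing has been tied to EZH2, the histone methyltransferase of the Polycomb complex.

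Small cell lung cancer lines of human origin gave the 26 RNA-seq libraries of the series. In the knockout experiment, the lines NCI-H526, NCI-H211, NCI-H1048 and COR-L311 were infected by lentivirus with either of 2 guide RNAs against the POU2F3 gene (sgPOU2F3e10.1 and sgPOU2F3e10.2) or with 1 control guide (sgNeg), 12 libraries in all. POU2F3 encodes the POU-domain transcription factor of tuft cells, the chemosensory cells of epithelia. Harvest was on day 4 in NCI-H1048 and NCI-H211 and on day 5 in COR-L311 and NCI-H526, so that day and line cannot be told apart. The other 14 libraries were 1 each from untreated, exponentially growing parental lines, those 4 and 10 others (DMS79, DMS114, NCI-H69, NCI-H82, NCI-H128, NCI-H146, NCI-H446, NCI-H510, NCI-H524 and NCI-H889). Per the labels, NCI-H1048 was grown in HITES medium, NCI-H128 in RPMI with 20% serum, and the others in RPMI with 10% serum or HITES.

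Values are FPKM, mapped fragments scaled to transcript length and to library size, which may be compared between genes. Each knockout table holds 1 sgNeg value and 1 sgPOU2F3 value per line, in which the authors combined both guides, so that a value of a single line has no error. Depth, estimated from the smallest FPKM steps, was 15.5 to 23.4 M fragments (M, mega) for the combined sgPOU2F3 columns, 9.33 to 15.5 M for sgNeg columns and 9.77 to 32.4 M for parental libraries. At that depth and for the longest annotated transcript, 1 fragment of SLFN11 is worth 0.00614 to 0.0203 FPKM in a parental library. Over all genes, 8 of 8 knockout columns were closest by rank correlation to the parental library of their own line. POU2F3 stood in sgPOU2F3 cells at 6.95% of the sgNeg value in NCI-H211, 30.7% in NCI-H1048, 40.7% in NCI-H526 and 80.4% in COR-L311, so that little of its RNA was lost in COR-L311. Its parental levels were 189 to 387 FPKM in these 4 lines, against no more than 0.608 FPKM among the 10 others. Ten-gene list values for tuft cell markers, POU2F3 among them, were lower with sgPOU2F3 in COR-L311 too. The list's median log2 ratio of FPKM + 1 was -0.84 in COR-L311, -0.87 in NCI-H526, -1.23 in NCI-H1048 and -3.08 in NCI-H211. At least 2-fold lower were 4 of 10 in COR-L311 (1.92% of tested genes), 4 in NCI-H526 (0.388%), 5 in NCI-H1048 (0.783%) and 9 in NCI-H211 (4.26%). DMS114 stood apart for its fibroblast markers (COL3A1 at 512 FPKM), whose sum over 6 genes was at most 46.1 FPKM in any other parental line. The T cell marker CD3E was at most 0.0302 FPKM and the leukocyte marker PTPRC at most 0.837 FPKM in every parental line.

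The 4 genes lie in a cluster on chromosome 17 that, with SLFN12L and SLFN14, spans 315 kb (GRCh38, 35243036 to 35558098). SLFN5 is at its edge on the plus strand (35243036 to 35273655). SLFN11 (35350305 to 35373701), SLFN12 (35411060 to 35433283) and SLFN13 (35435096 to 35448837) follow on the minus strand. SLFN13 ends only 1.81 kb before the SLFN12 gene begins in the direction of transcription, while 37.4 kb separate SLFN11 from SLFN12 and 76.7 kb separate SLFN5 from SLFN11. Family members share sequence, which matters for how reads are assigned. Of all 50-base words in annotated SLFN11 transcripts, 9.69% also occur in SLFN13 transcripts, and 6.496% of those of SLFN13 occur in SLFN11. SLFN12 and SLFN13 share 0 such words, as do SLFN5 and each of the other 3 genes.

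RefSeq promoters (GRCh38.p14, 250 bases before to 50 after the start of the gene) were matched for SLFN11 and SLFN12, 2 of the 4 genes. They are shown because the RNA of both genes was at or near 0 in most of the lines below. CG dinucleotides, the sites of DNA methylation in mammals, are in capitals; methylation was not measured in this series.
SLFN11, chr17:35373572-35373871, minus strand: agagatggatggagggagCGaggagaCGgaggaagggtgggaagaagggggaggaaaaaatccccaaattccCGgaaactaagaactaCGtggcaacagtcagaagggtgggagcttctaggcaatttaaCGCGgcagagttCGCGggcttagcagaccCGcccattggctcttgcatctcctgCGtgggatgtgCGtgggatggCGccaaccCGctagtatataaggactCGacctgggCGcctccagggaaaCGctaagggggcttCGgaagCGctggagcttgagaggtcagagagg
SLFN12, chr17:35433125-35433424, minus strand: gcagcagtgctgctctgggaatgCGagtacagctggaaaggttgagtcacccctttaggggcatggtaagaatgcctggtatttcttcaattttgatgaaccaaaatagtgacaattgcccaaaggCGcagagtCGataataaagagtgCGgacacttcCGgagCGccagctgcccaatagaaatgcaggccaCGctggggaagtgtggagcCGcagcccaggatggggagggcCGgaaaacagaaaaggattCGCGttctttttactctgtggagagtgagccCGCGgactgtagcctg
The SLFN11 promoter holds 18 CG dinucleotides and that of SLFN12 holds 13, against a median of 14 over 35116 promoters of the same length. The core of the interferon-stimulated response element, GAAA repeated after 2 bases of any kind, was searched on both strands and found in neither promoter, while 3.57% of all promoters hold it. ATGCAAA, the start of the octamer bound by POU factors, was also found in neither (4.46% of all promoters). GGAAGT, a core of ETS factor sites, was absent from the SLFN11 window. In that of SLFN12 it occurred on the printed strand at bases 200 to 205 and on the other strand at bases 155 to 160, counted from 1 at the 5′ end (22.8% of all promoters hold it).

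In the parental lines SLFN11 was either well expressed or close to 0. Of the 4 lines used for the knockout, it was at 18.1 FPKM in NCI-H1048, 15.0 FPKM in NCI-H526, 0.468 FPKM in NCI-H211 and 0 in COR-L311. Of the 10 others, it was at 38.3 FPKM in DMS79 and 10.4 FPKM in DMS114, and between 0.00687 FPKM in NCI-H82 and 0.898 FPKM in NCI-H146 in the other 8, with a median of 0.0945 FPKM over the 10. High lines thus occurred in both groups, and the groups overlapped over nearly the whole range. In order, DMS79, NCI-H1048, NCI-H526 and DMS114 came first, and NCI-H146, the next line, was far below them. At the low end the values of NCI-H510 (0.0171 FPKM) and NCI-H82 (0.00687 FPKM) each come to about 1 fragment (estimates of 0.966 and 0.974). With 1 library per line, neighbours in this order have no spread by which to separate them.

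SLFN5, an interferon-induced repressor of transcription, followed a partly similar order at lower levels. It was at 6.20 FPKM in NCI-H1048, 1.66 FPKM in NCI-H526, 0.996 FPKM in NCI-H211 and 0.0210 FPKM in COR-L311. In the 10 other lines it was listed at 0 in 4 (NCI-H446, NCI-H82, NCI-H524 and NCI-H510), had a median of 0.0371 FPKM and was highest in DMS79 at 6.07 FPKM, ahead of NCI-H128 at 1.68 FPKM and NCI-H69 at 1.09 FPKM. NCI-H1048 and DMS79 were the highest lines for this gene, and the groups overlapped.

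SLFN13, a ribonuclease that cleaves transfer and ribosomal RNA, was high in other lines than SLFN11, apart from DMS79. It was at 5.14 FPKM in NCI-H211, against 0.234, 0.180 and 0.0338 FPKM in NCI-H1048, NCI-H526 and COR-L311. Among the other lines it was at 30.1 FPKM in DMS79, 14.8 FPKM in NCI-H510 and 1.04 FPKM in DMS114, and between 0 and 0.0591 FPKM in the remaining 7. SLFN12, the partner through which PDE3A-binding drugs kill tumour cells, was low throughout. It was at 0.549 FPKM in NCI-H211 and listed at 0 in the other 3 lines used for the knockout, and it was at 1.47 FPKM in DMS79 and 1.02 FPKM in NCI-H510 and no more than 0.0665 FPKM in the remaining 8. PDE3A itself was at most 0.0293 FPKM in the 4 lines used for the knockout and between 0 and 32.0 FPKM in the 10 others.

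**Figure D1:**
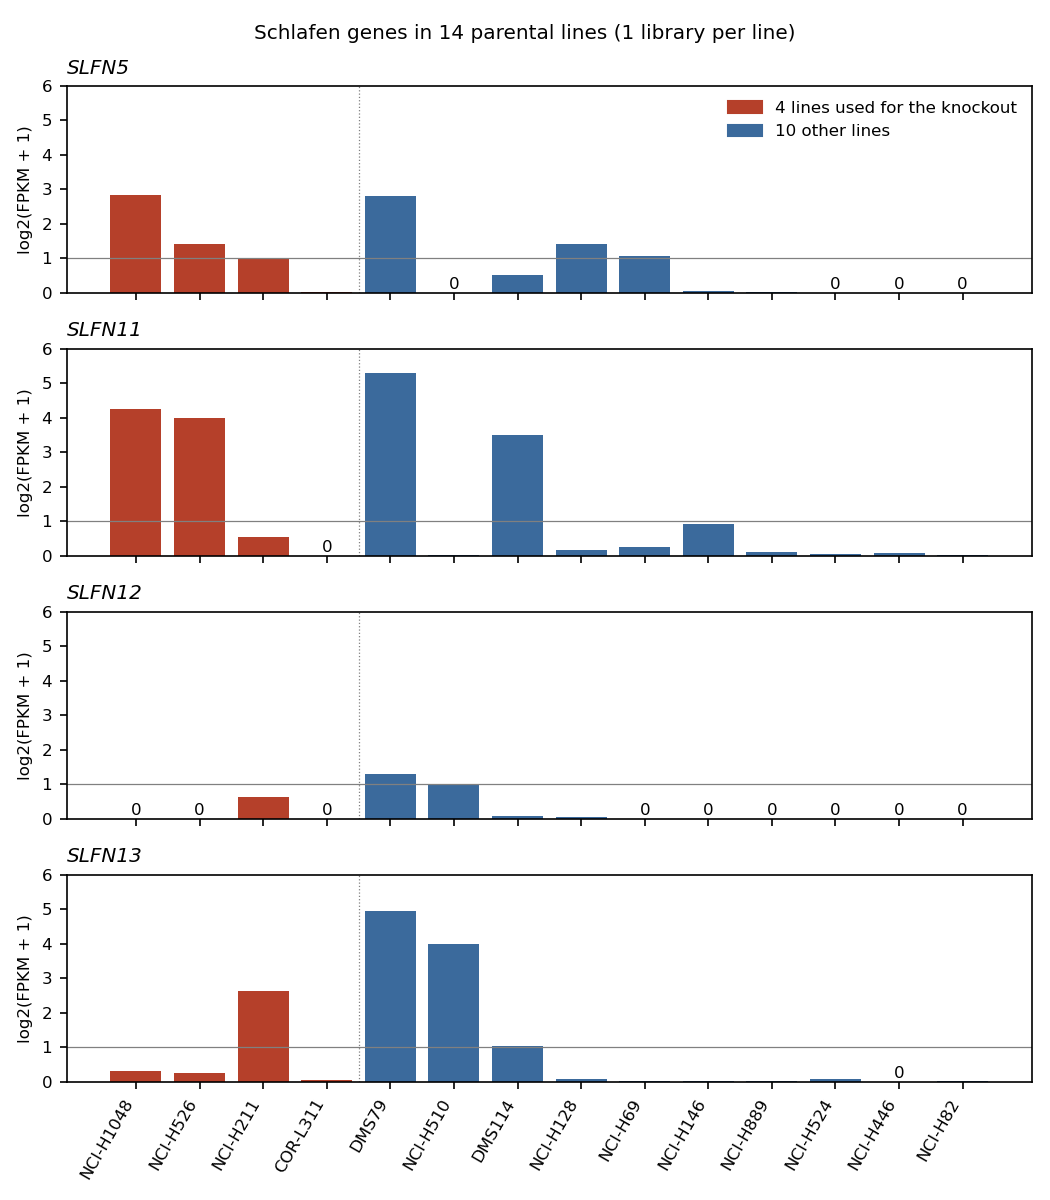
Levels of SLFN5, SLFN11, SLFN12 and SLFN13 as log2(FPKM + 1) in 14 parental lines, 1 library per line; red bars are the 4 lines used for the knockout and blue bars the 10 others, each ordered by the sum of the 4 genes, the line at 1 marks 1 FPKM, and 0 marks a gene listed at 0. SLFN11 is high in NCI-H1048, NCI-H526, DMS79 and DMS114, and SLFN13 in NCI-H211, DMS79 and NCI-H510.

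Taken by line, DMS79 had all 4 genes at 1 FPKM or more and the highest sum, 76.0 FPKM. At the other end, 6 lines had none of the 4 at 1 FPKM (COR-L311, and NCI-H146, NCI-H889, NCI-H524, NCI-H446 and NCI-H82), with sums of 0.0148 to 0.962 FPKM. The sum was 24.5 FPKM in NCI-H1048, 16.8 FPKM in NCI-H526, 7.15 FPKM in NCI-H211 and 0.0548 FPKM in COR-L311. The gene with the largest share was SLFN11 in NCI-H1048, NCI-H526, DMS79 and DMS114, SLFN13 in NCI-H211 and NCI-H510, and SLFN5 in NCI-H128 and NCI-H69.

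The 4 lines used for the knockout were compared with the 10 others to ask whether Schlafen levels go with POU2F3 expression. None of the 3 genes that passed the filter (at least 1 FPKM in at least 4 of 14 libraries) passed the threshold, a Benjamini-Hochberg adjusted p of 0.05 in limma over 13226 genes, at which 0.212% of genes were higher and 0.0378% lower. At an unadjusted p of 0.05, 0 of 3 passed too, against 4.60% of genes higher and 4.06% lower. SLFN11 averaged 2.20 ± 2.24 in the 4 lines and 1.04 ± 1.84 in the 10 others on the log2(FPKM + 1) scale (SD, n = 4 and 10), a difference of 1.16 (95% interval -1.01 to 3.34, limma adjusted p = 0.82; exact permutation test, two-sided, p = 0.39). For SLFN5 the difference was 0.73 (-0.48 to 1.93, limma adjusted p = 0.78; exact permutation p = 0.27), and for SLFN13 it was -0.22 (-2.15 to 1.72, limma adjusted p = 0.97; exact permutation p = 0.90). SLFN12, which did not pass the filter, differed by -0.09 (exact permutation test, two-sided, p = 0.83). The intervals are wide and hold differences of more than 1 in size for each tested gene, so that these data do not show that the groups are alike. The SLFN11 difference was 1.90 without COR-L311, 0.48 without NCI-H1048 and 0.56 without NCI-H526, and that of SLFN5 was 0.22 without NCI-H1048 and 1.16 without COR-L311. Without DMS79 it was 1.64 for SLFN11 (exact permutation p = 0.087) and 0.98 for SLFN5 (exact permutation p = 0.10, limma adjusted p = 0.61). Leaving out NCI-H1048, NCI-H526 or DMS79 put SLFN11 below the filter, so its differences there are outside limma. With a pseudocount of 0.1 the differences were 1.98 for SLFN11 and 1.76 for SLFN5. For SLFN13 it was 0.25 with that pseudocount, 0.033 without COR-L311, 0.22 without DMS79 and 0.11 without NCI-H510, so that its direction differed between settings.

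Across the 14 parental lines the highest correlations were within 2 pairs of the 4 genes. SLFN12 and SLFN13, the neighbours 1.81 kb apart, had a Pearson correlation of 0.99 and a Spearman correlation of 0.78 on log2(FPKM + 1), and Pearson 0.99 without DMS79 (13 lines). SLFN12 stood at 4.88% of the SLFN13 level in DMS79, 6.91% in NCI-H510 and 10.7% in NCI-H211. SLFN5 and SLFN11 had a Pearson correlation of 0.78 and a Spearman correlation of 0.83, and 0.68 and 0.80 without DMS79. Between the pairs, Pearson correlations were 0.31 to 0.36 and Spearman correlations 0.24 to 0.48. Without DMS79 the Pearson values were -0.06 to -0.19, while the Spearman values were 0.04 to 0.35. These are descriptions over 14 libraries that share 1 table and its processing, and each rests on the 3 or 4 lines in which the genes are high.

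**Figure D2:**
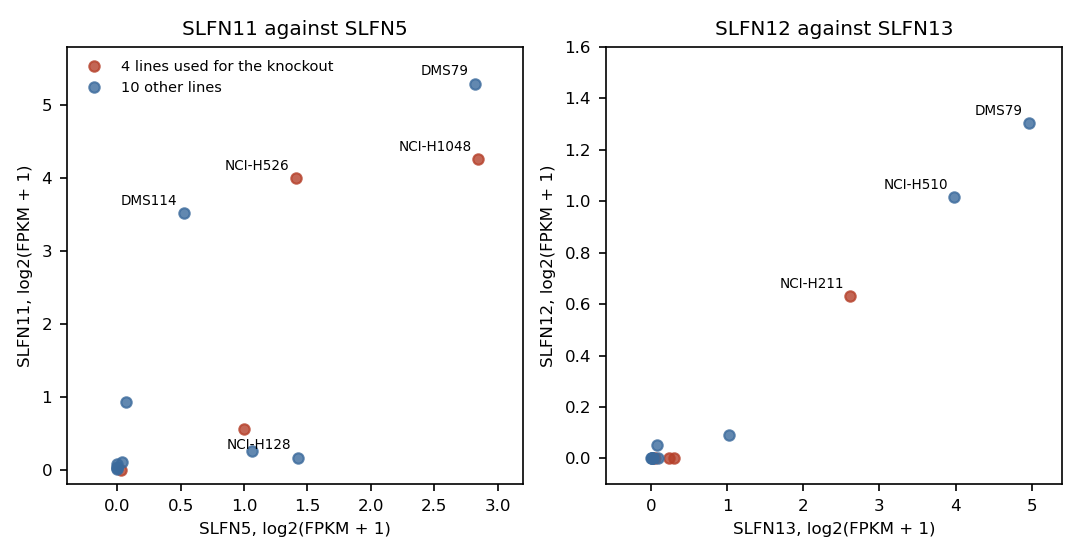
Left, SLFN11 against SLFN5, and right, SLFN12 against SLFN13, each as log2(FPKM + 1); a point is 1 parental line, red for the 4 lines used for the knockout and blue for the 10 others. SLFN12 and SLFN13 fall on 1 line through NCI-H211, NCI-H510 and DMS79 (Pearson 0.99), while SLFN11 and SLFN5 scatter more (Pearson 0.78).

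The genes most like each member over the 14 lines were the 5 with the highest Pearson correlation among 13226 genes, a search that yields high values and was given no test. For SLFN11 these were JDP2 (0.90), CHST15 (0.88), PSMB9 (0.87), ZNF442 (0.85) and GRTP1 (0.83). JDP2 encodes a repressor of the AP-1 family, and PSMB9 an interferon-induced subunit of the immunoproteasome. For SLFN5 they were DDX6 (0.84), the interferon-induced GTPase gene MX1 (0.82), IL22RA1 (0.81), C1R (0.80) and ZHX2 (0.79), and SLFN11 ranked at 9. For SLFN13 they were MB21D1 (0.89), which encodes the DNA sensor cGAS, PLA2G4F (0.89), GOLGA3 (0.86), SLC15A1 (0.86) and TNS1 (0.86). For SLFN12 they were SLFN13 (0.99), PLA2G4F (0.89), SLC15A1 (0.88), POMC (0.88) and TNS1 (0.88). SLFN12 itself did not pass the filter and was outside the search, so it is not listed for SLFN13. Of all these genes other than SLFN13, those tested in the knockout comparison had limma adjusted p of 0.42 to 0.98.

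Interferon pathway and response genes were described next, since several Schlafen genes respond to interferon. Over the parental lines, 14 of the 41 interferon genes that passed the filter had a Pearson correlation of at least 0.5 with SLFN11 (34.1%, against 3.395% of all genes), and 9 had one with SLFN5 (22.0%, against 3.68%). The medians were 0.31 with either gene, against 0.01 for SLFN11 and -0.00 for SLFN5 over all genes. Without DMS79, 10 reached 0.5 with SLFN11 (24.4%, against 4.91% of all genes) and 8 with SLFN5 (19.5%, against 4.23%). PSMB9 had 0.87 with SLFN11, and MX1 had 0.78 with SLFN11. Interferon genes vary together, so these counts are not independent. Between the groups of lines, 0 of 41 passed the limma threshold, and 6 had an unadjusted p under 0.05, all higher in the 4 lines used for the knockout (4.60% of all tested genes were higher and 4.06% lower). The first by p was PSMB8, an immunoproteasome subunit, which spanned 5.04 to 71.6 FPKM in the 4 lines and 0 to 39.8 FPKM in the 10 others (difference 2.97, limma adjusted p = 0.33). The second was DDX58, the RNA sensor RIG-I, with 3.27 to 15.4 FPKM and 0.239 to 7.12 FPKM (difference 1.47, limma adjusted p = 0.34).

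The knockout experiment asked what changed when POU2F3 was targeted, and SLFN11 showed no common direction. It was at 15.7 FPKM in sgPOU2F3 cells and 19.6 FPKM in sgNeg cells of NCI-H1048. In NCI-H526 it was at 40.8 FPKM in sgPOU2F3 cells and 33.2 FPKM in sgNeg cells. In NCI-H211, where it is low, it was at 1.78 FPKM in sgPOU2F3 cells and 0.681 FPKM in sgNeg cells, and in COR-L311 it was listed at 0 in both arms. The ratio of the sgPOU2F3 to the sgNeg value was thus below 1 in NCI-H1048 (0.802) and above 1 in NCI-H526 (1.23) and NCI-H211 (2.62). In NCI-H211 these values come to about 210 fragments in the combined sgPOU2F3 column and 32 in the sgNeg column, taking the longest transcript.

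SLFN5 differed most in NCI-H211. There it was at 12.1 FPKM in sgPOU2F3 cells, against 1.86 FPKM in sgNeg cells, a 6.49-fold ratio. On the log2 scale with a pseudocount of 1 the ratio was 2.19, and 131 of the 12387 tested genes had a larger one. In the other lines SLFN5 was at 3.22 FPKM in sgPOU2F3 cells and 1.82 FPKM in sgNeg cells of NCI-H526, at 5.14 and 5.86 FPKM in NCI-H1048 in the same order of arms, and at 0.134 and 0.0728 FPKM in COR-L311. The value was higher with sgPOU2F3 in 3 of 4 lines. One of these was COR-L311, with about 30 fragments in the combined sgPOU2F3 column and 9 in the sgNeg column. Its log2 ratio was 0.08, and 4965 of the 12387 tested genes had a larger one. After targeting, the NCI-H211 level was above that of sgPOU2F3 or sgNeg cells of any other line. NCI-H211 is also the line with the lowest remaining POU2F3 RNA. In NCI-H1048, the next lowest (30.7% of sgNeg), the ratio of the sgPOU2F3 to the sgNeg value of SLFN5 was 0.877. That ratio was 1.78 in NCI-H526 (POU2F3 at 40.7%) and 1.84 in COR-L311 (80.4%). A relation of SLFN5 to the remaining POU2F3 RNA was not tested.

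SLFN13 was at 8.71 FPKM in sgPOU2F3 cells and 12.7 FPKM in sgNeg cells of NCI-H211, the only line in which it reached 1 FPKM. In the other 3 lines it was between 0.0151 and 0.603 FPKM in sgPOU2F3 cells and between 0 and 0.614 FPKM in sgNeg cells. Its neighbour SLFN12 was at 0.960 FPKM in sgPOU2F3 cells and 0.893 FPKM in sgNeg cells of NCI-H211, 11.03% and 7.04% of the SLFN13 value in the same arm. In the other lines SLFN12 was listed at 0 in every column but that of NCI-H1048 sgPOU2F3 cells (0.0222 FPKM, about 1 fragment). Over all genes, 13.8% to 15.9% were listed at 0 in sgPOU2F3 columns, against 18.3% to 21.5% in sgNeg columns. Estimated depth was higher in sgPOU2F3 than in sgNeg columns in 3 lines and equal in NCI-H526.

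**Figure D3:**
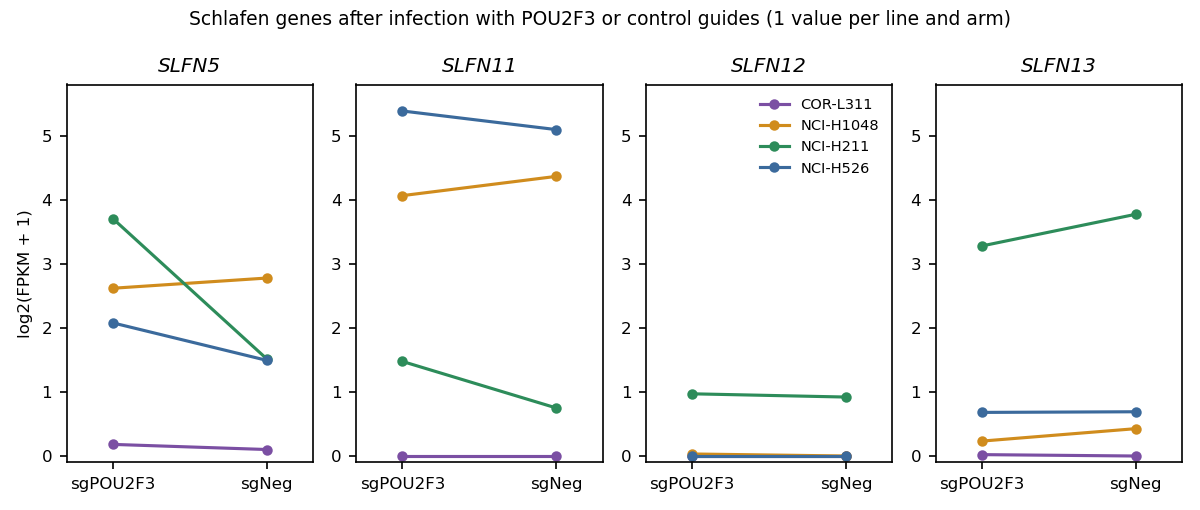
Levels of the 4 genes as log2(FPKM + 1) in sgPOU2F3 cells (both guides combined by the authors) and sgNeg cells; each line joins the 2 values of 1 cell line. SLFN5 in NCI-H211 has the steepest line, with 12.1 FPKM in sgPOU2F3 cells and 1.86 FPKM in sgNeg cells.

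Across the 4 lines, 2 of the 4 genes passed the filter (at least 1 FPKM in at least 4 of 8 columns), and neither passed the limma threshold over 12387 genes, at which 0.0161% of genes were higher and 0% lower. At an unadjusted p of 0.05, 0 of 2 passed, against 4.67% of genes higher and 7.08% lower. POU2F3, the targeted gene, had a mean log2 ratio of -1.77 and was lower in 4 of 4 lines. It did not pass the threshold either (limma p = 0.012, adjusted p = 0.40). A gene that does not pass here is thus not shown to be unchanged. For SLFN5 the log2 ratio averaged 0.67 ± 1.06 (SD, n = 4 lines, 95% interval -0.25 to 1.6, limma adjusted p = 0.52), which was 0.17 without NCI-H211. SLFN11 had 0.18 ± 0.44 (SD, n = 4 lines, -0.27 to 0.63, limma adjusted p = 0.71), which was -0.0034 without NCI-H211. SLFN13 and SLFN12, outside the test, had means of -0.17 ± 0.24 and 0.02 ± 0.03 (SD, n = 4 lines), which were -0.06 and 0.01 without NCI-H211. Neither mean was larger than the spread between lines. The SLFN11 values include COR-L311, where the gene was listed at 0 in both arms and the ratio of 0 measures no response. Without that line the SLFN11 mean was 0.24 (limma adjusted p = 0.68).

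Within each line, ratios were read by size alone, at 2-fold on the log2(FPKM + 1) scale and with no test. In NCI-H211, 1 of the 4 genes (SLFN5) was at least 2-fold higher, where 4.87% of tested genes were, and none at least 2-fold lower (4.26% of tested genes). SLFN11 in that line had a log2 ratio of 0.73, or 1.27 with a pseudocount of 0.1, which puts it past 2-fold. None of the 4 genes reached 2-fold in either direction in COR-L311 (2.81% of tested genes higher and 1.92% lower), NCI-H1048 (0.767% and 0.783%) or NCI-H526 (1.39% and 0.388%). In NCI-H526 the SLFN5 ratio of 0.59 was exceeded by 485 of 12387 genes. In NCI-H1048 the SLFN11 ratio of -0.30 was one of the lower values, with 1258 genes below it.

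**Figure D4:**
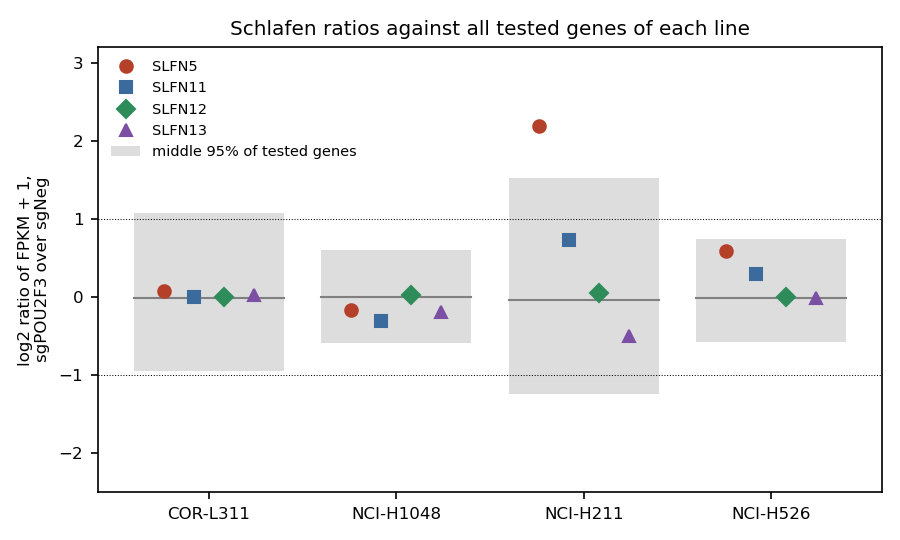
Log2 ratio of FPKM + 1 in sgPOU2F3 cells over sgNeg cells for the 4 genes in each line; the grey bar holds the middle 95% of all tested genes with their median as a grey line, and dotted lines mark 2-fold. SLFN5 in NCI-H211 (2.19) is the only point outside its bar.

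Other differences in NCI-H211 stood beside the SLFN5 value, and their part in it was not tested. YAP1, a coactivator of the Hippo pathway, was at 55.95 FPKM in sgPOU2F3 cells and 1.33 FPKM in sgNeg cells. The summed level of 6 fibroblast markers was 16.3 FPKM in sgPOU2F3 cells and 8.43 FPKM in sgNeg cells, with LUM at 12.3 and 0.101 FPKM and DCN at 0.537 and 7.26 FPKM in the same order of arms. The sum of 6 leukocyte markers was 7.72 FPKM in sgPOU2F3 cells and 3.52 FPKM in sgNeg cells of NCI-H211. LYZ was at 6.04 FPKM in sgPOU2F3 cells and 0.513 FPKM in sgNeg cells and CD14 at 1.59 and 2.84 FPKM in the same order of arms, while CD3E was listed at 0 in both arms and PTPRC was at 0.0626 FPKM in sgPOU2F3 cells and 0 in sgNeg cells.

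Of the 36 interferon genes tested in the knockout comparison, 5 were at least 2-fold higher in NCI-H211 (13.9%, against 4.87% of tested genes), and none was in the other lines. These were IFITM3 (382.5 FPKM in sgPOU2F3 cells and 20.0 FPKM in sgNeg cells), IFITM2 (289 and 45.97 FPKM), PARP9 (19.15 and 6.41 FPKM), PARP14 (12.1 and 4.98 FPKM) and IFI35 (2.26 and 0.460 FPKM), named after their values were seen. IFITM3 and IFITM2 encode membrane proteins that restrict virus entry. In COR-L311, IFITM2 was at 4.47 FPKM in sgPOU2F3 cells and 19.8 FPKM in sgNeg cells, the only one of the 36 at least 2-fold lower in any line. The other tested interferon genes were within 2-fold in NCI-H211. The list's median log2 ratio there was 0.07, against -0.03 over all tested genes. Across the 4 lines, 0 of 36 passed the limma threshold and 4 had an unadjusted p under 0.05, all higher (4.67% of all tested genes were higher and 7.08% lower), with a list median of 0.09 against -0.02 over all tested genes. Those were IRF9 (mean 0.44, limma adjusted p = 0.40), IFNGR1 (0.44, limma adjusted p = 0.40), STAT2 (0.32, limma adjusted p = 0.41) and IFI35 (0.51, limma adjusted p = 0.41).

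Genes of the setting in which SLFN11 acts were also described. Of 27 replication stress genes, among them the RPA subunits and the ATR and CHEK1 kinases, 0 passed in either comparison and 0 had an unadjusted p under 0.05 (limma). Over all tested genes, 4.67% were higher and 7.08% lower at that p after targeting, and 4.60% and 4.06% between the groups of parental lines. The median of the 27 was -0.09 after targeting of POU2F3 and 0.03 between the groups of parental lines. First by p after targeting were DDB1 and CUL4A of the ubiquitin ligase that acts on licensing factor CDT1, with mean log2 ratios of -0.18 and -0.24. Of 17 targets of DNA damaging drugs and repair genes, 0 passed and 3 had an unadjusted p under 0.05 after targeting, all lower (7.08% of all tested genes were), with a list median of -0.06. Among them were the DNA ligase gene LIG3 (-0.30 ± 0.15, limma adjusted p = 0.41) and the topoisomerase gene TOP2A (-0.44 ± 0.42, limma adjusted p = 0.42, SD, n = 4 lines). Between the groups of parental lines, 0 of these 17 had an unadjusted p under 0.05 (4.60% of all tested genes were higher and 4.06% lower). TOP1, the target of topotecan, spanned 33.5 to 79.1 FPKM in the 4 lines and 23.1 to 76.9 FPKM in the 10 others.

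Among 17 chromatin repressors and demethylases, 0 passed in either comparison (limma), and after targeting 1 was higher (KDM6A, a histone demethylase, mean 0.33) and 1 lower (RBBP7, mean -0.26) at an unadjusted p of 0.05, beside 4.67% of all tested genes higher and 7.08% lower. EZH2, singled out for its known tie to SLFN11, was at 40.3 to 79.2 FPKM in the 4 lines used for the knockout and 29.6 to 123 FPKM in the 10 others. Its Pearson correlation with SLFN11 over the 14 lines was 0.20, a weak relation given as a description. In NCI-H211, EZH2 was at 19.0 FPKM in sgPOU2F3 cells and 30.6 FPKM in sgNeg cells. In the same order of arms it was at 39.8 and 48.9 FPKM in NCI-H1048. It was at 76.4 and 63.0 FPKM in NCI-H526 and at 39.6 and 36.7 FPKM in COR-L311. A relation of these EZH2 values to SLFN11 was not tested. Of 9 tested ETS factor genes, 0 passed after targeting of POU2F3, with ELF1 (mean 0.36, higher in 4 of 4 lines) and EHF (mean -0.85, lower in 4 of 4 lines) first by p (limma adjusted p = 0.39 and 0.40). In NCI-H211, 3 of the 9 were at least 2-fold higher (33.3%, against 4.87% of tested genes). These were ETS1 (log2 ratio 2.79), ETS2 (1.91) and ELF3 (1.003), named after their values were seen. EHF was at least 2-fold lower there (-1.83), as were 4.26% of tested genes. In the other lines only ELF3 in NCI-H1048 reached 2-fold (1.52, higher). Any part of these differences in the Schlafen values was not tested. FLI1 is an ETS factor that drives SLFN11 in Ewing sarcoma as part of a fusion protein, and a fusion was not looked for here. FLI1 was at 14.6 FPKM in sgPOU2F3 cells and 16.7 FPKM in sgNeg cells of COR-L311, where SLFN11 was listed at 0. It was no more than 0.103 FPKM in NCI-H1048, NCI-H211 and NCI-H526.

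Of the phosphodiesterases related to SLFN12 function, PDE3B had a mean log2 ratio of 0.01 (limma adjusted p = 0.98), while PDE3A, below the filter, was at most 0.296 FPKM in sgPOU2F3 cells and 0.181 FPKM in sgNeg cells. The other human Schlafen genes were close to 0 or even across arms. SLFN12L was at most 0.0986 FPKM in sgPOU2F3 cells and 0.0383 FPKM in sgNeg cells, and SLFN14 at most 0.0273 and 0.0304 FPKM. SLFNL1, a distant relative on chromosome 1, was at 0.983 to 2.95 FPKM in sgPOU2F3 cells and 1.001 to 2.54 FPKM in sgNeg cells (mean of log2 ratios 0.03 ± 0.18, SD, n = 4 lines, limma adjusted p = 0.95), and at 0.446 to 3.54 FPKM in the 14 parental lines.

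Genes next to the cluster were described in the same way. Of 17 annotated neighbours within 300 kb, 10 were tested in the knockout comparison and 0 passed (limma). At an unadjusted p of 0.05, LIG3 (mean -0.30) and RASL10B (mean -0.42) were lower, as were 7.08% of all tested genes, and none was higher (4.67% of all tested genes). In NCI-H211 none of the 10 was at least 2-fold higher or lower, and their median log2 ratio was -0.13. Over the parental lines TAF15 was at 89.6 to 247 FPKM, AP2B1 at 33.2 to 71.3 FPKM and NLE1 at 10.7 to 33.1 FPKM, with no line at 0. UNC45B, a neighbour that encodes a chaperone of muscle myosin, was at most 0.0123 FPKM.

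Levels in sgNeg cells and in the parental library of the same line were set side by side, although the tables were normalised separately. SLFN11 was at 19.6 FPKM in sgNeg cells and 18.1 FPKM in the parental library of NCI-H1048, at 33.2 and 15.0 FPKM in NCI-H526 and at 0.681 and 0.468 FPKM in NCI-H211 in the same order. SLFN13 in NCI-H211 was at 12.7 FPKM in sgNeg cells and 5.14 FPKM in the parental library. SLFN5 in NCI-H211 was at 1.86 FPKM in sgNeg cells and 0.996 FPKM in the parental library. The sgNeg value was thus 2.21 times the parental one for SLFN11 in NCI-H526 and 2.47 times for SLFN13 in NCI-H211, where the ratios of sgPOU2F3 to sgNeg were 1.23 and 0.687. In NCI-H211 it was 1.87 times the parental one for SLFN5 and 1.46 times for SLFN11, where the ratios of sgPOU2F3 to sgNeg were 6.49 and 2.62. For SLFN11 in NCI-H1048 it was 1.08 times, beside a ratio of 0.802.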

How the data were processed

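RNA from human small cell lung cancer lines was polyA-selected and sequenced, per the labels' protocols. The authors deposited FPKM values, 1 table per knockout line and 1 for the parental lines; per the submitters' processing notes TopHat2, Cufflinks and Cuffdiff were used with the build hg19, and versions, annotation and scaling are not given in the sources used here. Whether reads were counted by strand is also not given. The labels call the parental table RPKM. The sgPOU2F3 column combines 2 guides in a way that is not stated, so guides cannot serve as replicates, and no file holds a column of another sample.

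Values were taken as log2(FPKM + 1), which understates changes of low genes. Tests were fitted in R 4.3.3 (limma 3.58.1), the variance prior following mean expression: line and arm as terms (3 residual degrees of freedom) for the knockout, and 4 against 10 lines for the parental table, after filters at 1 FPKM in at least 4 columns. The line is the replicate; separate cultures are not documented. Exact permutation tests ran over all 1001 allocations (SciPy 1.17.1). Both fits were tested on simulated data. The simulated shift was equal across lines and placed in well expressed genes with small noise. That setting does not cover low genes or genes that vary widely between lines, as the Schlafen genes do. Depth was estimated from FPKM steps of genes with 1 transcript in GENCODE (GRCh38); positions are from that annotation, not hg19. Fragment numbers are such estimates and cover counting error only.

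Members, gene lists and tests were chosen with earlier results of these data known. Genes named are the 4 members, the 5 most correlated genes of each, neighbours within 300 kb, and from each list those passing and the first by p; genes named outside that rule are marked or serve as known controls. Alternatives were the pseudocount, filters, trend, quantile normalization, median centring, the line term and leaving out each line. A few listed genes are not reported here.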

Additional observations from a re-analysis of the deposited data

Results flagged for a closer look

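Within each group of lines, values on the log2(FPKM + 1) scale were searched for 1 line far from the rest with Dixon's criterion, which chance meets in about 1 of 20 groups. Of 19 groups with any spread, 5 met it. In the 4 lines used for the knockout, NCI-H211 stood above the others for SLFN13 (5.14 FPKM) and SLFN12 (0.549 FPKM), and NCI-H526 for SLFN12L (0.0190 FPKM). In the 10 other lines, DMS79 stood above the rest for SLFN5 (6.07 FPKM) and SLFN14 (0.0353 FPKM). For SLFN12, SLFN12L and SLFN14 every other line of the group was listed at 0, so that any value above 0 meets the criterion and the stated chance does not apply. The SLFN12L and SLFN14 values come to an estimated 1.84 and 2.88 fragments.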

How the results depend on the processing

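None of the Schlafen genes passed a threshold under any setting in which it was tested by limma or the exact test. In limma, SLFN12 and SLFN13 were tested across the knockout lines only without a filter, as was SLFN12 in the parental comparison, and SLFN11 fell below the filter of the knockout fit without NCI-H1048 or NCI-H526. SLFN11 also fell below the filter of the parental fit without NCI-H1048, NCI-H526, DMS79 or DMS114. The knockout count of 2 called genes was 0 without a filter, without a trend and at a pseudocount of 0.1, 1 with quantile normalization, and 0 to 1 on leaving out a line. Without the replicate block of cell lines the count was 0 and the SLFN5 and SLFN11 estimates were unchanged at 0.67 and 0.18 (limma adjusted p = 1 for both). The SLFN11 mean was -0.0034 without NCI-H211 and 0.24 without COR-L311; as plain means with no test, added after seeing the data, it was 0.34 without NCI-H1048 and 0.14 without NCI-H526, and that of SLFN5 ranged from 0.17 to 0.95 on leaving out a line. The SLFN12 mean was 0.10 with a pseudocount of 0.1, and the SLFN11 ratio in NCI-H211 then passed 2-fold at 1.27. In the parental comparison 17 to 48 genes were called on leaving out a line in place of 33, with 17 without COR-L311 and 21 without NCI-H526. The SLFN13 difference was 0.25 with a pseudocount of 0.1 and -0.33 to 0.033 (without COR-L311) on leaving out a line (-0.82 to 0.22 with the exact test, which also covers lines whose loss put it below the filter; 0.22 without DMS79 and 0.11 without NCI-H510), and that of SLFN12 -0.25 to 0.029, positive without DMS79. The cause was not tested. The correlation of SLFN5 with SLFN11 was 0.68 to 0.86 and that of SLFN12 with SLFN13 0.987 to 0.998 on leaving out a line; these and the interferon correlations without DMS79 were chosen after seeing the data. Lines differ in depth, and SLFN12 and most low values rest on few fragments.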
